A study of Solanum lycopersicum with 6 samples.

Results

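Genes of the DNA replication machinery were examined by RNA-seq in tomato fruit (Solanum lycopersicum, the small cultivar Micro Tom) in 3 SlLBD40-KO libraries and 3 WT libraries, each given as 25 days after anthesis. SlLBD40-KO fruit lack a functional SlLBD40 by their label, a LATERAL ORGAN BOUNDARIES domain transcription factor, and WT fruit are wild type. The labels do not give the kind of edit, the number of knockout lines or whether a library is 1 fruit or a pool, so p-values measure only the spread between these libraries. Members were the genes whose table description names a replication enzyme or subunit (MCM, DNA helicase, polymerase, primase, replication factor, replication protein A, PCNA, origin recognition, GINS, ribonucleotide reductase, thymidine kinase or DNA ligase) and not a mitochondrial or chloroplast one. This gave 118 of 40229 genes. The rule reads descriptions, but the theme itself was selected on measured values, since cell cycle genes had already been seen to stand lower in SlLBD40-KO than in WT. Every difference between the genotypes below is therefore a description and supports nothing by itself.

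Replication starts at origins bound by the origin recognition complex, which loads the ring-shaped MCM helicase. MCM is then activated with GINS and other factors, DNA polymerase alpha and primase lay down primers, and polymerases delta and epsilon extend them while held by the sliding clamp PCNA, which replication factor C loads. Replication protein A coats the single strands, DNA ligase seals the fragments, and ribonucleotide reductase and thymidine kinase help to supply the nucleotides. In tomato fruit these genes serve the cell divisions of young fruit and, later, the endocycles in which pericarp cells copy their DNA without dividing, and they also serve the growing seeds.

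All 6 libraries had the fruit transcripts of TAGL1 and FUL2, MADS-box regulators of fruit development, TAGL1 lying between 164 and 175 TPM in SlLBD40-KO and between 172 and 241 TPM in WT. The labels give SlLBD40 no identifier. Taken from memory as Solyc02g085910, it stood at 0.77, 2.51 and 3.85 TPM in SlLBD40-KO and 1.57, 5.35 and 1.90 TPM in WT, which overlap and so do not check the genotype labels. Sample titles begin with a different prefix in each genotype, and where a sequencing lane is given it is not shared between genotypes, so these and the genotype cannot be told apart. SlLBD40-KO 1 and WT 1 stood apart by their seed transcripts. Storage and oil body genes, 51 entries without the inhibitor and lipid-transfer family, summed to 5107 TPM in SlLBD40-KO 1 and 4813 TPM in WT 1, against 427 and 602 TPM in the other SlLBD40-KO libraries and 269.8 and 291 TPM in the other WT libraries. With that family the list holds 115 entries and summed to 5574, 862 and 2399 TPM in SlLBD40-KO and 14411, 1622 and 2051 TPM in WT. In such RNA from many fruit cells together, fewer cells of a type and less RNA per cell cannot be told apart.

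Of the 118 members, 72 reached the level needed for testing, at least 1 TPM in at least 3 libraries. Of the other 46, 28 were listed at 0 in every library and 18 were read below that level, 6 of them reaching 1 TPM somewhere. Members at 0 were mostly annotated copies of replication protein A (12 of 23) and entries described as RNA-directed DNA polymerase, the reverse transcriptases that the word "polymerase" brought in (5 of 9), besides 6 of 7 other replication factor entries. Among the 72, 7 were under 1 TPM in every SlLBD40-KO library, so these passed only through their WT values, and 0 passed only through SlLBD40-KO.

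The members ranged widely, from a set that stood far lower in SlLBD40-KO to others near or above their WT level. In 17 of the 72 the mean TPM was at least 4-fold lower in SlLBD40-KO, from 5.41-fold to 15.4-fold, and the next member stood 3.25-fold lower. Without the seed-rich libraries SlLBD40-KO 1 and WT 1 both sets met, since 6 of the 17 were then under 4-fold lower, down to 2.61-fold, and the most lowered of the other members stood at 2.76-fold. Of those other 55, 7 were at least 2-fold lower with all libraries, and the most raised stood 3.41-fold higher. Without overlap, 15 of the 55 were lower (all genes 16.1%) and 4 higher (all genes 8.26%). The 17 comprised MCM7, the MCM10 homolog, 5 genes described only as DNA helicase, PCNA, 2 primase genes, the polymerase alpha subunit B and a gene described only as DNA polymerase, 2 ribonucleotide reductase genes, a replication protein A subunit, a replication factor C gene and a DNA ligase-like gene. This grouping was made after the values were seen. The share of all genes at least 4-fold or 2-fold lower was not computed, so these counts are not read as particular to the members.

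By limma, 0 of the 72 members passed an adjusted p of 0.05 over all 18368 genes, where 0.0926% of all genes did (0.0490% lower and 0.0436% higher in SlLBD40-KO). The lowest adjusted p among members was 0.0646, for MCM7. At an unadjusted p under 0.05, 28 members were lower and 3 higher in SlLBD40-KO, against 11.3% of all genes lower and 6.24% higher. The genotypes did not overlap in 36 members. Every SlLBD40-KO library lay below every WT library in 32 of them (all genes 16.1%) and above in 4 (all genes 8.26%). The mean of log2(TPM + 1) was lower in SlLBD40-KO in 52 of the 72 (all genes 56.5%). Every count of lower or higher means below uses this scale. The median log2 fold change over the 72 was −0.42, with quartiles of −1.28 and 0.03, beside a median of −0.09 over all genes. Since the theme was proposed from this same contrast, nothing is read from these counts.

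**Figure D1:**
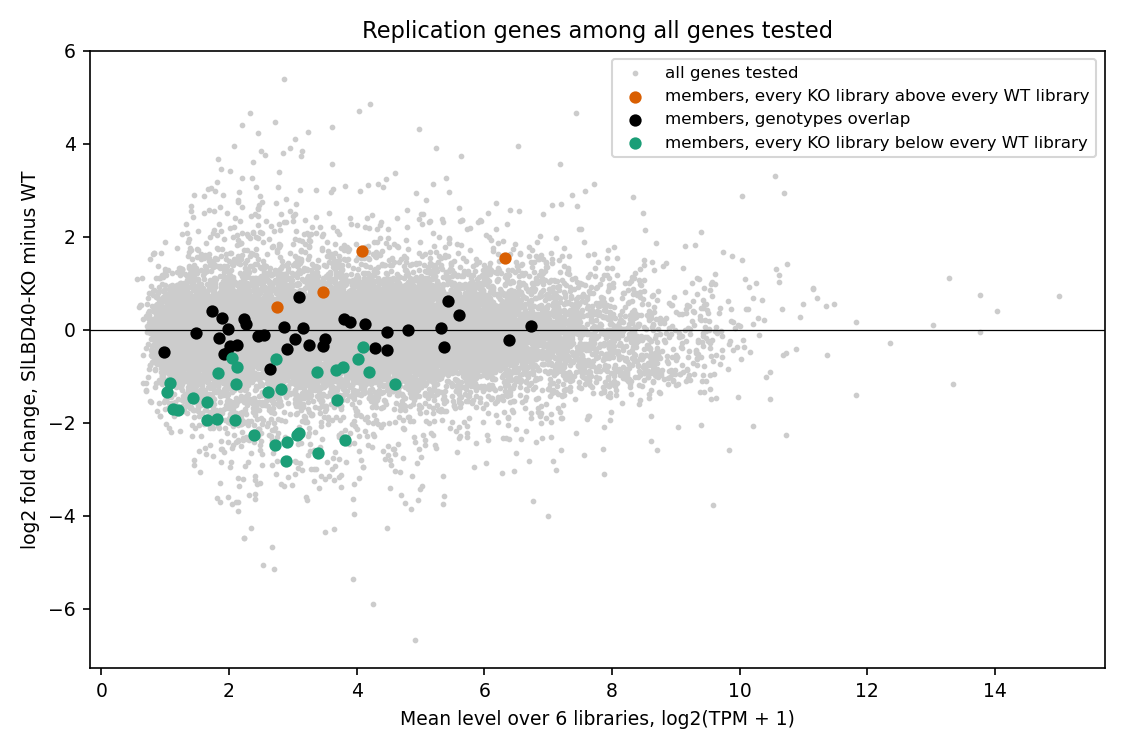
Mean level on the log2(TPM + 1) scale over 6 libraries (x) against the log2 fold change, SlLBD40-KO minus WT (y), for the 18368 genes tested (grey) and the 72 replication members (coloured by whether the genotypes overlap). The 32 members with every SlLBD40-KO library below every WT library reach −2.82, and the 4 on the other side reach 1.69.

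Origin recognition genes, which mark where replication can start, stood moderately lower in SlLBD40-KO in all 3 annotated subunits. Subunit 1 (Solyc03g006420) was at 9.08, 8.55 and 3.52 TPM in SlLBD40-KO and 14.8, 9.78 and 15.9 TPM in WT. Subunit 2 (Solyc06g073510) was at 9.70, 11.8 and 7.26 TPM in SlLBD40-KO and 13.1, 19.3 and 20.0 TPM in WT. Subunit 3 (Solyc12g013880) was at 2.24, 2.54 and 2.17 TPM in SlLBD40-KO and 4.58, 4.06 and 5.63 TPM in WT. The genotypes did not overlap in any of the 3 (all genes 16.1% lower), but subunit 1 came close, with SlLBD40-KO 1 just under WT 2. Their log2 fold changes lay between −0.91 and −0.79.

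Several helicase genes were among the members with the largest log2 fold changes. MCM7 (Solyc01g079500), a subunit of the helicase ring, stood at 1.24, 1.75 and 1.23 TPM in SlLBD40-KO and 13.4, 8.38 and 10.3 TPM in WT, a 7.60-fold lower mean (log2 fold change −2.26, SE 0.30). All 3 SlLBD40-KO values were close together and far under the lowest WT value. The MCM10 homolog (Solyc01g111550), a factor that helps to activate the helicase, stood at 0.13, 0.38 and 0.37 TPM in SlLBD40-KO and 4.87, 1.75 and 1.15 TPM in WT. Here WT 1 was far above the other WT libraries, and the 8.83-fold lower mean became 3.87-fold without the seed-rich libraries SlLBD40-KO 1 and WT 1.

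Of the 8 genes that the table describes as DNA helicase without naming a subunit, 7 were tested, and 5 formed a tight set. The table does not say which helicase they encode. Solyc01g110130 had the largest log2 fold change of any member, −2.82 (SE 0.42), with 1.10, 2.53 and 1.93 TPM in SlLBD40-KO and 30.5, 11.3 and 18.7 TPM in WT. Solyc11g040120, the most abundant of the set, had 5.48, 6.26 and 4.10 TPM in SlLBD40-KO and 39.5, 21.5 and 35.7 TPM in WT. In both, each SlLBD40-KO library was well under each WT library, and the same held for the other 3. Solyc02g070780 had 1.53, 2.10 and 1.75 TPM in SlLBD40-KO and 22.1, 10.5 and 12.9 TPM in WT. Solyc02g082180 had 1.89, 3.04 and 1.90 TPM in SlLBD40-KO and 17.5, 9.70 and 25.2 TPM in WT. Solyc07g005020 had 2.17, 3.18 and 3.17 TPM in SlLBD40-KO and 20.4, 12.5 and 20.0 TPM in WT. These 5 means were 6.11-fold to 10.9-fold lower in SlLBD40-KO. MCM7 (7.60-fold) lies in that range, but so do members of other roles, such as PCNA (7.95-fold). The ratios therefore do not tell which helicase these genes encode.

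The untested DNA helicase mcm8-like gene (Solyc09g007330) had 0.15, 0.38 and 0.28 TPM in SlLBD40-KO and 2.92, 1.23 and 0.91 TPM in WT, also without overlap. Of the genes described as DNA helicase, the other 2 tested overlapped. INO80 (Solyc04g016370), the motor of a chromatin remodelling complex that the word "helicase" brought in, stood at 21.6, 15.8 and 9.57 TPM in SlLBD40-KO and 10.3, 9.72 and 22 TPM in WT. Solyc01g105520, also described only as DNA helicase, stood at 4.71, 4.22 and 3.50 TPM in SlLBD40-KO and 4.53, 3 and 2.68 TPM in WT. Next to Solyc01g105520 in the table lies minichromosome maintenance 9 (Solyc01g105530), a relative of the ring subunits, at 15.2, 9.44 and 18.2 TPM in SlLBD40-KO and 5.27, 8.84 and 8.59 TPM in WT. It was one of the 4 tested members with every SlLBD40-KO library above every WT library, although SlLBD40-KO 2 exceeded WT 2 by little. The others were a polymerase epsilon and a replication protein A gene, given below, and a DNA polymerase III subunit epsilon entry (Solyc01g100180) with a log2 fold change of 0.50.

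GINS, a partner of the MCM ring in the active helicase, was uneven. PSF2 (Solyc05g054430) stood at 3.40, 3.95 and 3.39 TPM in SlLBD40-KO and 12.8, 11.8 and 6.44 TPM in WT, a 2.89-fold lower mean with no overlap. SLD5 (Solyc11g065900) was far more abundant and level, at 46.7, 43.8 and 30.0 TPM in SlLBD40-KO and 38.3, 40.6 and 35.9 TPM in WT. PSF1 (Solyc09g008630) overlapped too, at 2.36, 4.14 and 2.41 TPM in SlLBD40-KO and 4.33, 4.16 and 3.28 TPM in WT. A further gene described as GINS complex (Solyc05g008620) was below the testing level, with 0.38, 0.67 and 0.57 TPM in SlLBD40-KO and 6.61, 2 and 0.57 TPM in WT.

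Primer synthesis stood lower throughout. The primase gene Solyc08g082200 had the largest ratio of any member, 15.4-fold lower, at 0.08, 0.24 and 0.29 TPM in SlLBD40-KO and 5.05, 1.94 and 2.38 TPM in WT. The primase large subunit (Solyc04g045530) had 0.35, 0.91 and 0.59 TPM in SlLBD40-KO and 8.08, 4.40 and 3.79 TPM in WT. Polymerase alpha subunit B (Solyc05g014540), which works in the same complex, had 0.97, 0.94 and 0.66 TPM in SlLBD40-KO and 6.93, 3.52 and 3.45 TPM in WT. All 3 were under 1 TPM in each SlLBD40-KO library, and WT 1 was the highest library in each. A second primase entry (Solyc12g044350) differed less, at 2.59, 3.11 and 1.53 TPM in SlLBD40-KO and 4.64, 3.22 and 4.46 TPM in WT. A gene described only as DNA polymerase (Solyc02g093300) matched the strong pattern, at 0.18, 0.40 and 0.22 TPM in SlLBD40-KO and 5.62, 1.86 and 2.78 TPM in WT.

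**Figure D2:**
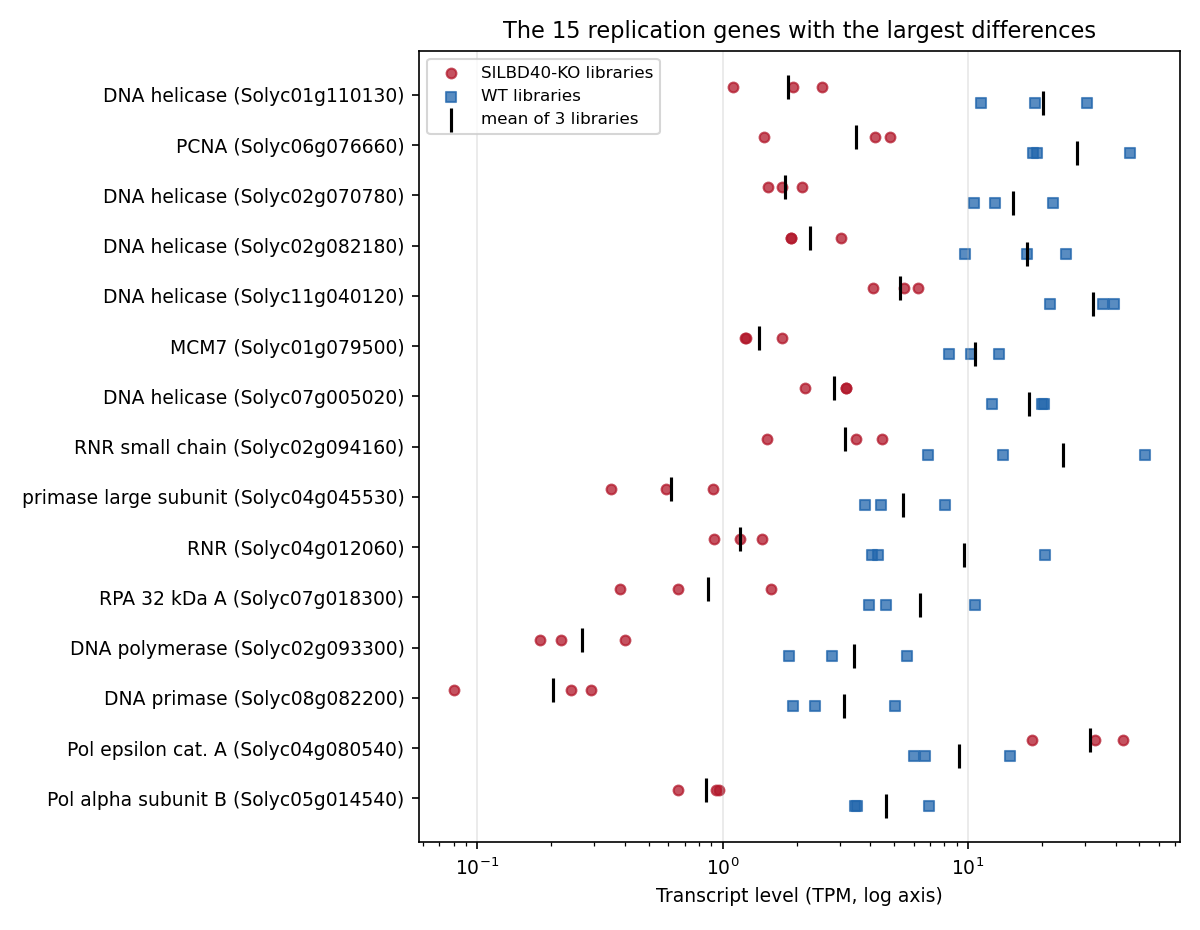
Level in each library (TPM, log axis) of the 15 members with the largest log2 fold change among those whose genotypes do not overlap, SlLBD40-KO above WT in each row, with vertical marks at the means. In 14 rows every SlLBD40-KO point lies left of every WT point, and the polymerase epsilon catalytic subunit A (Solyc04g080540) lies the other way.

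The elongating polymerases were mixed, and subunits of the same complex differed from one another. For polymerase delta, which copies the lagging strand, subunit 3 (Solyc10g007400) stood at 1.58, 2.18 and 1.92 TPM in SlLBD40-KO and 6.24, 4.67 and 5.68 TPM in WT, with tight values in both. Its small subunit (Solyc03g063340) stood at 60.5, 51.0 and 48.7 TPM in SlLBD40-KO and 35.1, 48.9 and 44.8 TPM in WT. Its subunit 4 (Solyc09g091450) stood at 59.1, 76.0 and 100.3 TPM in SlLBD40-KO and 88.7, 112.4 and 70.9 TPM in WT. The small subunit and subunit 4 overlapped between genotypes and were far more abundant than subunit 3.

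For polymerase epsilon, which copies the leading strand, both directions occurred. The catalytic subunit A entry (Solyc04g080540) stood at 33.0, 18.3 and 42.6 TPM in SlLBD40-KO and 6.68, 6.05 and 14.8 TPM in WT, a 3.41-fold higher mean (log2 fold change 1.69, SE 0.44, limma adjusted p = 0.133). Among the 15 largest non-overlapping differences it was the 1 that was higher in SlLBD40-KO. This depends on the cut, since the replication protein A gene Solyc05g025590, also higher, just missed the 15. Its log2 fold change was 1.547, against −1.551 for the last of them, Solyc05g014540. A further polymerase epsilon entry (Solyc11g067140) overlapped, at 2.49, 2.44 and 2.04 TPM in SlLBD40-KO and 5.23, 2.01 and 4.44 TPM in WT. Subunit 3 (Solyc11g068480) stood at 10.2, 14.7 and 12.8 TPM in SlLBD40-KO and 23.4, 27.8 and 21.2 TPM in WT. The gene described as epsilon subunit (Solyc03g098250) stood at 1.82, 1.88 and 1.14 TPM in SlLBD40-KO and 4.05, 3 and 4.86 TPM in WT. Neither subunit 3 nor the gene described as epsilon subunit overlapped, and both were lower in SlLBD40-KO. Here, above and below, members outside the 3 most abundant of a role and the 15 largest differences are given for their role. They were chosen after their values were seen.

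Of the 35 polymerase entries 22 were tested, and 15 of these had a lower mean in SlLBD40-KO (all genes 56.5%). DNA polymerase V (Solyc01g106220), which overlapped, stood at 54.7, 51.6 and 15.3 TPM in SlLBD40-KO and 37.3, 32.2 and 79.0 TPM in WT. The kappa, eta, lambda-like and zeta entries, polymerases of DNA repair and damage bypass, had log2 fold changes between −0.33 and 0.13, and the genotypes overlapped in each.

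PCNA (Solyc06g076660), the clamp that holds polymerases on DNA and a common mark of proliferating cells, stood at 1.47, 4.17 and 4.83 TPM in SlLBD40-KO and 45.8, 19.0 and 18.4 TPM in WT. Its mean was 7.95-fold lower in SlLBD40-KO (log2 fold change −2.65, SE 0.49, limma adjusted p = 0.0879). SlLBD40-KO 1 was the lowest and WT 1 the highest, and without both of them the mean was 4.16-fold lower. The clamp loader was uneven. Replication factor C subunit 5 (Solyc06g060150) stood at 13.2, 16.8 and 16.2 TPM in SlLBD40-KO and 35.2, 36.9 and 34.3 TPM in WT. Subunit 4 (Solyc11g012820) stood at 31.2, 29.3 and 21.5 TPM in SlLBD40-KO and 26.4, 26.3 and 28.3 TPM in WT, with a log2 fold change of 0.00. Subunit 5 was thus lower in SlLBD40-KO with narrow values in both genotypes, while subunit 4 overlapped. Subunit 2 (Solyc08g080510) also did not overlap, at 6.68, 9.78 and 4.47 TPM in SlLBD40-KO and 23.5, 20.3 and 19.0 TPM in WT.

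Genes that share a role could differ from one another. Of 3 entries for the large clamp loader subunit 1, Solyc09g091650 stood at 0.27, 0.49 and 0.48 TPM in SlLBD40-KO and 3.88, 1.68 and 1.34 TPM in WT. The abundant Solyc07g005880 overlapped, at 24.3, 23.2 and 10.5 TPM in SlLBD40-KO and 22.4, 19.2 and 35.0 TPM in WT. Solyc06g060350 overlapped as well, with a log2 fold change of −0.12.

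Replication protein A, the single-strand binding complex, also had genes in both directions. Solyc05g025590, described as a replication protein A subunit, was the most abundant member in SlLBD40-KO and stood at 123.8, 142.3 and 143.7 TPM in SlLBD40-KO and 65.7, 31.7 and 46.6 TPM in WT. This is a 2.85-fold higher mean with no overlap (log2 fold change 1.55, SE 0.29, limma adjusted p = 0.0904). Solyc03g115050, with the same description, lay below the testing level, at 0.44, 0.61 and 0.34 TPM in SlLBD40-KO and 9.98, 3.15 and 0.96 TPM in WT. Another one, Solyc08g075840, overlapped, at 21.7, 22.9 and 8.28 TPM in SlLBD40-KO and 21.4, 15.7 and 29.3 TPM in WT. Of the 32 kDa subunits, form A (Solyc07g018300) stood at 0.38, 0.66 and 1.57 TPM in SlLBD40-KO and 10.6, 4.61 and 3.94 TPM in WT. Form B (Solyc10g081830) overlapped, at 9.43, 12.1 and 6.03 TPM in SlLBD40-KO and 15.4, 11.9 and 8.34 TPM in WT.

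Ribonucleotide reductase, which makes deoxynucleotides, repeated the pattern among its small chains. Solyc02g094160 stood at 1.52, 4.47 and 3.49 TPM in SlLBD40-KO and 52.7, 13.9 and 6.84 TPM in WT, so the WT libraries themselves differed widely. Its 7.75-fold lower mean became 2.61-fold without the seed-rich libraries. The small chain Solyc01g080210 overlapped, at 9.75, 6.63 and 14.9 TPM in SlLBD40-KO and 4.16, 6.92 and 6.44 TPM in WT. The subunit beta entry Solyc03g112570 was level, at 20.9, 20.7 and 21.6 TPM in SlLBD40-KO and 17.3, 26.3 and 22.3 TPM in WT. Of the entries with no chain named, Solyc04g012060 stood at 1.18, 1.44 and 0.92 TPM in SlLBD40-KO and 20.5, 4.31 and 4.07 TPM in WT. The other, Solyc04g051350, stood at 3.34, 3.12 and 2.16 TPM in SlLBD40-KO and 14.45, 7.67 and 5.88 TPM in WT, a 3.25-fold lower mean. Neither overlapped. Where such copies are alike in sequence, the authors' counting could split reads between them, which the table does not show.

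**Figure D3:**
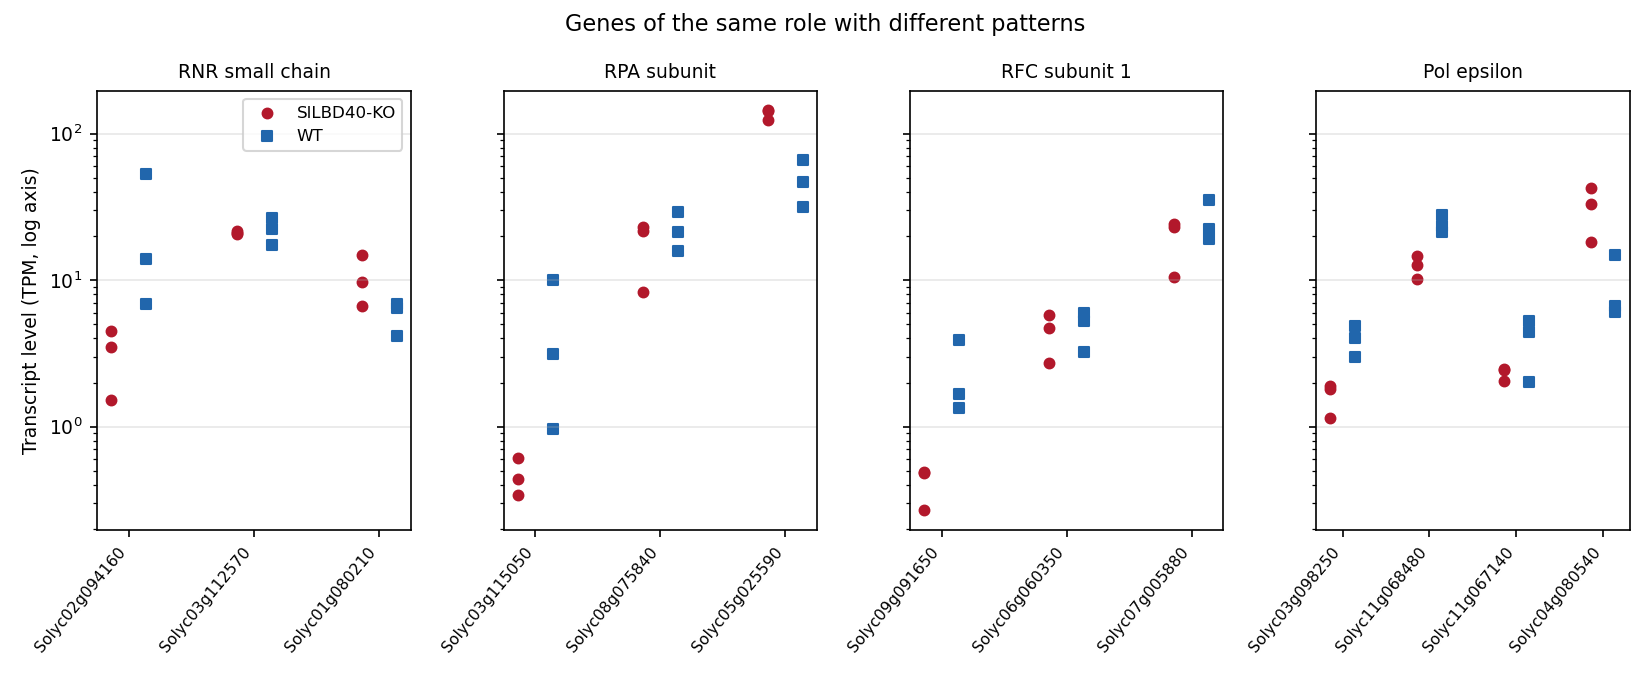
Level in each library (TPM, log axis) of genes that share a role, with SlLBD40-KO left of WT for each gene. In each panel but that of polymerase epsilon, the leftmost gene stands lower in SlLBD40-KO and the rightmost one overlaps or, for Solyc05g025590, stands higher, and the panel of polymerase epsilon has 2 lower genes, 1 that overlaps and 1 higher.

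Thymidine kinase (Solyc11g012480), which salvages thymidine, stood at 12.0, 12.4 and 11.8 TPM in SlLBD40-KO and 16.5, 17 and 25.4 TPM in WT, a small difference with no overlap. DNA ligases were mixed. The ligase-like gene Solyc07g025380 stood at 0.45, 0.84 and 0.63 TPM in SlLBD40-KO and 7.68, 2.48 and 2.07 TPM in WT. The ligase Solyc11g066370 stood at 9.42, 9.26 and 7.01 TPM in SlLBD40-KO and 16, 12.6 and 20.9 TPM in WT. Neither overlapped (all genes 16.1% lower without overlap), while the other 7 tested ones did. The most abundant entry, Solyc04g081730, stood at 99.0, 99.3 and 129.6 TPM in SlLBD40-KO and 98.4, 69.7 and 152.5 TPM in WT. The ligase 1-like gene Solyc05g005260 stood at 35.0, 35.2 and 118.6 TPM in SlLBD40-KO and 32.4, 42.7 and 28.1 TPM in WT, high in SlLBD40-KO 3 alone. Solyc02g091120, also described as DNA ligase, overlapped, at 19.6, 15.9 and 9.19 TPM in SlLBD40-KO and 13.7, 8.22 and 14.8 TPM in WT. Of 14 ligase entries 9 were tested, with 5 lower and 4 higher means in SlLBD40-KO, close to the share of all genes (56.5% lower). The last replication factor entry tested, a replication factor-A carboxy-terminal domain gene (Solyc11g066240), stood between 5.47 and 7.64 TPM in SlLBD40-KO and between 5.82 and 6.67 TPM in WT.

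**Figure D4:**
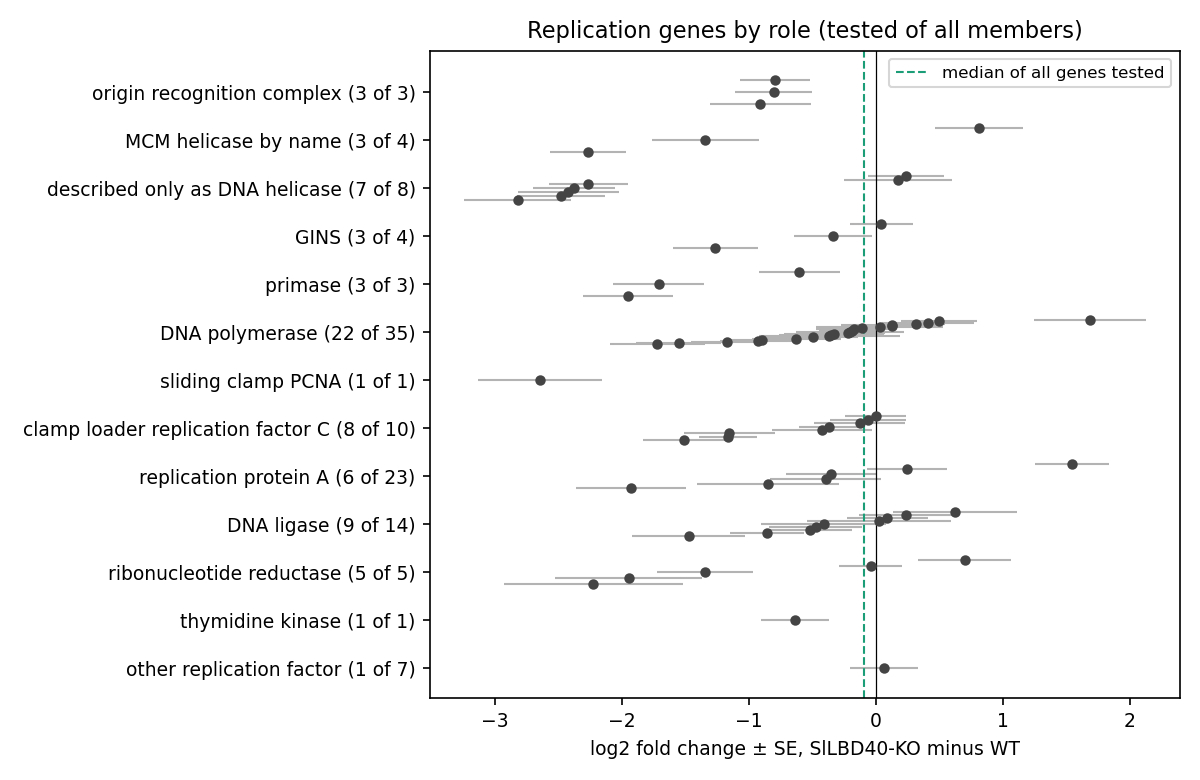
Log2 fold change with its SE (limma, SlLBD40-KO minus WT) of each tested member, by role, with the tested and total numbers of members in brackets and a dashed line at the median of all genes tested, −0.09. Primase, origin recognition and most DNA helicase entries lie left of the line, while polymerases, ligases and replication protein A lie on both sides.

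The 17 were picked by their ratio, and they include the 7 that passed the testing level through WT alone, so their levels are a description. Their means had a median of 1.18 TPM in SlLBD40-KO and 9.64 TPM in WT, against 7.22 TPM in SlLBD40-KO and 9.17 TPM in WT for the other 55 tested. The highest mean among the 17 was 5.28 TPM in SlLBD40-KO and 32.2 TPM in WT, while the other 55 reached 136.6 TPM in SlLBD40-KO and 106.9 TPM in WT. Of members averaging at least 10 TPM over the 6 libraries, 5 of 31 belonged to the 17, and of those below it 12 of 41. Summed over all 118 members, the total differed less, at 953.0, 954.0 and 965.8 TPM in SlLBD40-KO and 1216, 977 and 1186 TPM in WT. Summed over the 17 it was 20.4, 33.8 and 28.1 TPM in SlLBD40-KO and 315, 133 and 173.0 TPM in WT. The 36 members whose genotypes overlapped summed to between 621.1 and 643 TPM in SlLBD40-KO and between 577 and 718 TPM in WT.

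Within a genotype the 17 mostly shared their order of libraries. WT 1 was the highest WT library in 16 of them and SlLBD40-KO 1 the lowest SlLBD40-KO library in 13. These are the 2 seed-rich libraries, which thus held most of the extremes of both genotypes. Without both, the median log2 fold change of the 17 was −1.35, against −1.95 with all libraries. Its sign was fixed in advance, since their genotypes do not overlap. Their means were then 2.61-fold to 8.15-fold lower. Without WT 1 alone it was −1.54, and without SlLBD40-KO 1 alone −1.90. SlLBD40-KO 3 was the lowest SlLBD40-KO library in 24 of the 36 overlapping members. After median-ratio scaling, which aligns the libraries on the typical gene, it was so in 18.

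**Figure D5:**
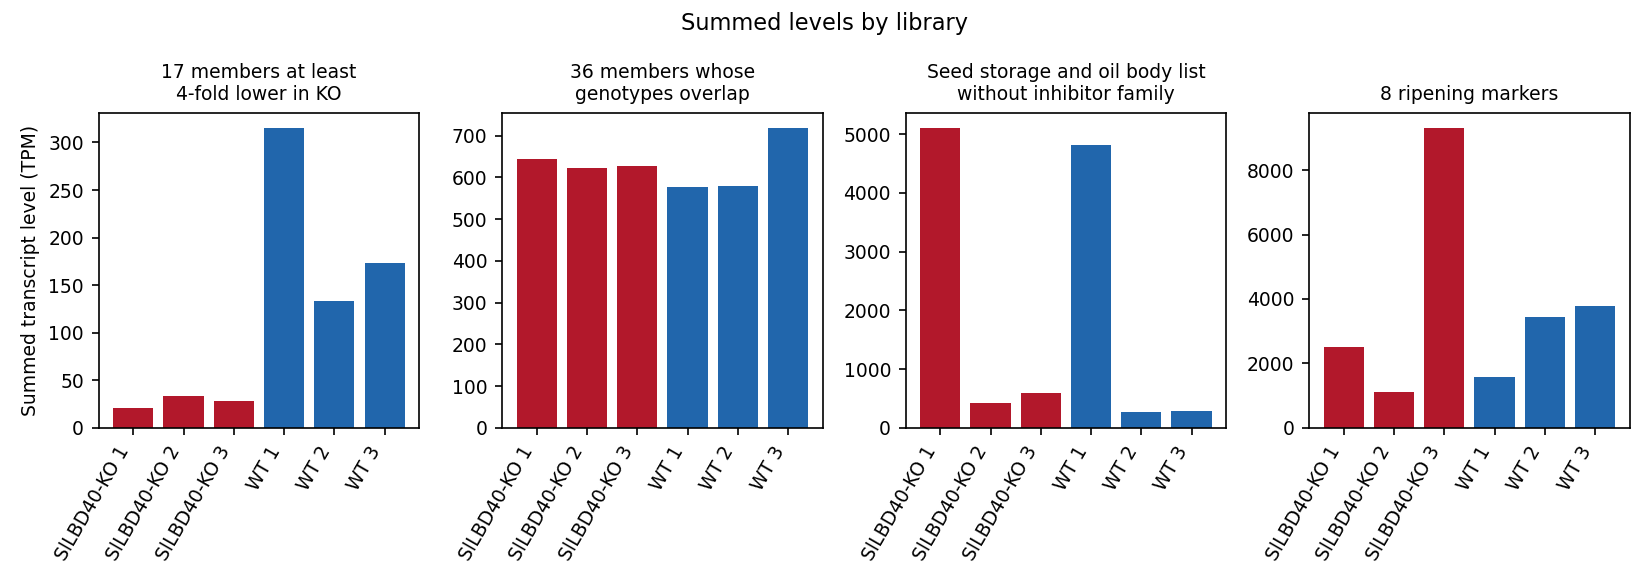
Summed level (TPM) by library, SlLBD40-KO left of WT, of the 17 members at least 4-fold lower, the 36 members whose genotypes overlap, the seed list and 8 ripening markers. The 17 reach 33.8 TPM at most in SlLBD40-KO and 133 TPM at least in WT, while the seed sum is high in SlLBD40-KO 1 and WT 1.

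Ripening markers went in both directions. RIN and NOR are transcription factors needed for ripening. In each SlLBD40-KO library they were above every WT library, 2 of the 8 markers (all genes 8.26%). Neither was called by limma (adjusted p = 0.228 for RIN and 0.190 for NOR). The other 6 overlapped. Among them, E4 and ACO1 had log2 fold changes of −1.86 and −1.48, and E8, PSY1 and PG2a of 1.01, 0.69 and 2.49. RIN stood at 27.3, 20.9 and 112.7 TPM in SlLBD40-KO and 1.53, 19.7 and 8.14 TPM in WT. The summed level of the 8 ranged from 1107 to 9306 TPM in SlLBD40-KO and from 1578 to 3768 TPM in WT, and ACS2 was below the testing level. Of the 5 fruit identity markers, PPC2, a phosphoenolpyruvate carboxylase, was lower without overlap in SlLBD40-KO (all genes 16.1%), and the others overlapped. The part of fruit stage or seed content in the replication values was not tested, beyond the values without the seed-rich libraries.

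Lists of other S-phase genes are given next. The shares of all genes to set beside their counts are 56.5% with a lower mean, and 11.3% lower and 6.24% higher at an unadjusted p under 0.05. Among 16 genes for origin firing and S-phase control, 12 were tested, 10 with a lower mean in SlLBD40-KO, with a median log2 fold change of −0.73 and 0 called by limma (7 lower and 0 higher at an unadjusted p under 0.05). The 12 include an RNA polymerase II accessory factor, Cdc73 (Solyc06g054080, log2 fold change 0.07), which its description does not place in replication. The largest differences were in 2 genes described as CDT1-like, a kind that helps to load MCM. Their descriptions also say chloroplastic, a word that kept genes out of the members. Another CDT1 entry (Solyc03g019960) was lower without overlap, with a smaller log2 fold change of −0.77. Solyc01g006140 stood at 0.13, 0.13 and 0.20 TPM in SlLBD40-KO and 2.74, 1.98 and 2.39 TPM in WT. Solyc06g008510 stood at 0.23, 0.79 and 0.52 TPM in SlLBD40-KO and 4.56, 2.80 and 3.11 TPM in WT. WT 1 was less apart in these 2 than in PCNA. E2FA (Solyc01g007760), a transcription factor of a family that controls S-phase genes, stood at 7.53, 7.90 and 7.76 TPM in SlLBD40-KO and 16.2, 11.8 and 20.7 TPM in WT. Its partner in control, the retinoblastoma-related gene (Solyc09g091280), stood at 10.3, 9.15 and 4.22 TPM in SlLBD40-KO and 17.1, 11.2 and 25.8 TPM in WT. On the other side, the E2F-associated phosphoprotein gene (Solyc01g008260) stood at 28.5, 36.6 and 32 TPM in SlLBD40-KO and 17.3, 28.0 and 21.6 TPM in WT, higher by little and without overlap. Of the E2FB entries, Solyc06g074010 overlapped (log2 fold change −0.15) and Solyc11g068800 was lower without overlap (−0.69). Solyc03g019960 and the genes given here from E2FA on were chosen after their values were seen.

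In the list of chromatin assembly, fork processing and thymidylate supply, 39 of 73 genes were tested and 29 had a lower mean in SlLBD40-KO, with a median log2 fold change of −0.41 and 0 called (11 lower and 0 higher at an unadjusted p under 0.05). Both leading genes break down dUTP, which keeps uracil out of new DNA. Solyc01g100030 stood at 1.27, 4.09 and 4.96 TPM in SlLBD40-KO and 77.6, 31.5 and 21.1 TPM in WT, a 12.6-fold lower mean that became 7.64-fold without WT 1. Solyc01g097970 stood at 1.66, 2.12 and 1.78 TPM in SlLBD40-KO and 16.3, 6.69 and 6.12 TPM in WT.

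Core histones, whose synthesis accompanies replication, had a lower mean in SlLBD40-KO in 37 of 47 tested genes of 83, with a median of −0.86 and 0 called (22 lower and 0 higher at an unadjusted p under 0.05). The genotypes nearly met in the leading ones. The histone H3 gene Solyc01g074000 stood at 1, 7.97 and 12.4 TPM in SlLBD40-KO and 140.6, 55.1 and 12.6 TPM in WT. The histone H4 gene Solyc05g054610 stood at 0, 1.51 and 2.63 TPM in SlLBD40-KO and 58.6, 15.1 and 2.95 TPM in WT. WT 3 thus lay next to the SlLBD40-KO libraries for these histones, unlike for MCM7, where it stood at 10.3 TPM. Of 12 tested cyclins and B-type CDKs among 45, 10 had a lower mean (3 lower and 0 higher at an unadjusted p under 0.05, 0 called by limma), and the B1-type CDK (Solyc10g074720), a mitotic kinase, stood at 1.01, 0.76 and 0.64 TPM in SlLBD40-KO and 6.66, 4.51 and 2.70 TPM in WT. Cyclin-D1-binding protein (Solyc05g008520) was the other leading gene of that list, at 15.3, 23.3 and 14.9 TPM in SlLBD40-KO and 27.9, 25.5 and 37.2 TPM in WT. By its description it binds a cyclin and is itself neither a cyclin nor a CDK. Of 4 tested CDK inhibitors among 5, 3 had a lower mean (0 at an unadjusted p under 0.05), and 1 did not overlap. This gene, Solyc02g090680, stood at 20.3, 26.1 and 2.13 TPM in SlLBD40-KO and 33.5, 35.9 and 27.9 TPM in WT.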

How the data were processed

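Levels came from 1 deposited RNA-seq table of 40229 gene models in 6 libraries, whose header names no unit. Library sums lie between 987932 and 994646, so the values were taken as TPM made by the authors, that is, abundances per transcript length scaled to a common total. Per the submitters' processing notes, TopHat2, HISAT2, StringTie and Cufflinks were used, with no role given. Genome build and annotation: not given in the sources used here. Sequencing depth is unknown, because TPM values do not hold it. Columns are numbered from 1 to 3 within a genotype, unlike the sample titles, and although 1 column name equals a knockout title, each was assigned to a genotype only.

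Genes were tested if 3 or more libraries reached 1 TPM (18368 genes). After adding 1 and taking log2, limma 3.58.1 (R 4.3.3, trend option) compared SlLBD40-KO with WT, and p-values were adjusted by Benjamini-Hochberg over all genes tested, with a threshold of 0.05. The script was tested on simulated data. "N-fold" is a ratio of mean TPM. A log2 fold change uses the values with 1 added, so it understates the change of low genes. Counts of genes with a lower or higher mean use this log2 scale too, which can differ in direction from the mean TPM. The planned count-based tests did not apply to TPM.

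Members, lists and tests were chosen with earlier results of these data known. Members named are the 3 with the highest mean in each role and the 15 with the largest log2 fold change among tested ones whose genotypes do not overlap and whose higher genotype averages at least 2 TPM. Pathway genes named are the 2 with the largest change per list under the same conditions. Others are said to be chosen after their values were seen. Python 3.11.15 with matplotlib 3.10.9 made the figures.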

Additional observations from a re-analysis of the deposited data

How the results depend on the processing

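No member was called by limma under any alternative run, with 16 to 30 members lower and 1 to 3 higher at an unadjusted p under 0.05. The median member log2 fold change ranged from −0.61 to −0.29, against a main value of −0.42. Every run lay within 0.27 of the main value. This is the SD of the median member level between libraries of a genotype, and not an error of the fold change. The median log2 fold change was −0.42 without the reverse transcriptase, INO80 and ligase-like entries, an alternative chosen after seeing the data. Median-ratio scaling shifted the median of all genes from −0.09 to 0.02 and the members' to −0.31. Under the filter of 5 TPM, 32 of 48 members had a lower mean. Over all genes, 17 calls became 27 when libraries were scaled by median ratios, and 0 with no filter or without both seed-rich libraries. Leaving out 1 library gave between 0 and 23: 0 without SlLBD40-KO 1 or WT 3, 3 without WT 2, 9 without SlLBD40-KO 2, 11 without WT 1 and 23 without SlLBD40-KO 3. The 15 largest differences kept their sign under every alternative in which they were tested, which their lack of overlap largely fixes, and their median moved from −2.22 to −1.55 without both seed-rich libraries. Of 41 named members tested, up to 4 changed sign under a single alternative. No paired analysis was possible because the table's columns carry no numbers that tie libraries across genotypes. The DESeq2 alternative was not run, since TPM are not counts. Sequencing depth is unknown, so low levels such as those of primase in SlLBD40-KO carry an unknown counting error.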
